A study of Mus musculus with 6 samples.

Results

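Transcripts of 10 mouse genes for the uptake, binding and activation of fatty acids were measured in liver after deletion of the kinase LKB1. The 10 genes were chosen by symbol, as Cd36, Slc27a2, Slc27a4, Fabp1, Fabp2, Fabp5, Acsl1, Acsl3, Acsl4 and Acsl5, out of 55450 genes in the deposited table, and all 10 passed the filter on low counts that left 14539 genes. The study compared 3 mice with loxP-flanked LKB1 alleles (LKB1 fl/fl; knockout, KO) with 3 wild-type mice (WT, genotype labelled normal), all of strain C57BL/J as the labels spell it. Both groups received the same AAV8 Cre at 6 weeks of age, an adeno-associated virus of a serotype used to reach hepatocytes, and the left liver lobe was taken 4 weeks later, at 10 weeks. No promoter is given for the Cre, and no group with the floxed alleles but without Cre was analysed here, so the comparison is of floxed with unfloxed mice that both carried the virus.

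Long-chain fatty acids reach the liver cell from plasma and from lipoproteins. They cross the membrane with the help of CD36 and of the fatty acid transport proteins encoded by the Slc27a genes, and inside the cell they are carried by small soluble fatty acid binding proteins (Fabp genes). Before they can be oxidised, esterified or elongated they must be joined to coenzyme A, which is done by the long-chain acyl-CoA synthetases (Acsl genes) and by Slc27a proteins that also have this activity. Fabp1 is one of the most abundant proteins of the hepatocyte cytosol, and several of these genes are known targets of the nuclear receptor PPAR-alpha.

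Total counts per library ran from 47659122 to 56147667, and no gene of the 10 had fewer than 55 counts in any library. Values are normalised counts in CPM (reads of a gene scaled to a common library size, after TMM scaling) unless said otherwise. Stk11, the gene of LKB1, had 22.1, 14.4 and 11.4 CPM in KO 1 to 3 and 66.1, 64.2 and 69.7 CPM in WT 1 to 3, so all KO libraries lay below all WT libraries. Replicate 1 of each group had at least 29243 counts of Xist, the RNA of the inactive X chromosome, and at most 6 counts of 4 Y-linked genes, whereas the other 4 libraries had at least 6146 Y-linked and at most 16 Xist counts. The labels do not give this difference. Results for the 10 genes over all 6 libraries are therefore set beside values for the 4 libraries with Y-linked counts, called the Y-linked libraries (2 against 2), and for the 2 libraries with Xist counts, called the Xist pair (1 against 1, with no replicate check).

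Over all 6 libraries, 0 of the 10 genes passed the quasi-likelihood test of edgeR at a Benjamini-Hochberg adjusted threshold of 0.05, against 3.37% of all genes tested. Before adjustment 4 of the 10 had a p-value under 0.05 (Slc27a2, Fabp5, Acsl1 and Acsl4), against 26.3% of all genes, and DESeq2 called 3 of the 10 (Fabp5, Acsl1 and Acsl4), against 15.8%. The KO libraries all lay below the WT libraries for 4 genes, Slc27a2, Fabp1, Fabp5 and Acsl1 (15.5% of all genes), and all above them for 1 gene, Acsl4 (16.9% of all genes). In the Y-linked libraries 7 of the 10 passed the threshold, against 33.3% of all genes. Of these, 6 fell (Slc27a2, Fabp1, Fabp2, Fabp5, Acsl1 and Acsl5; 16.1% of all genes) and 1 rose (Acsl4; 17.2% of all genes). Leaving out KO 1 alone also gave 7, against 30.2% of all genes. The KO library with Xist counts was the KO library nearest to WT, or beyond it, for each of these 7. It was also the KO library with the highest Stk11 level, and the part of that in these values was not tested.

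**Figure D1:**
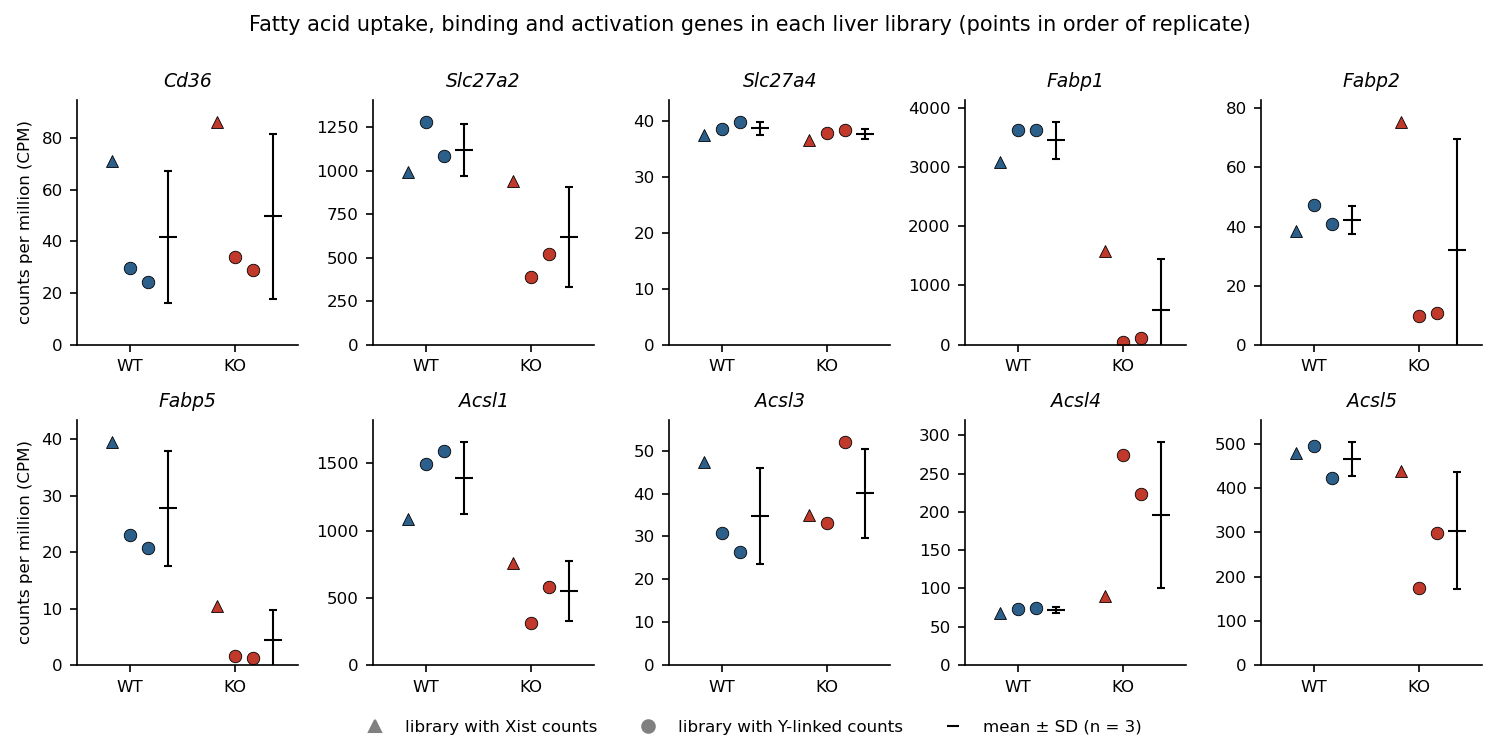
Normalised counts (CPM, linear axes from 0) of the 10 genes in each liver library, with WT in blue, KO in red, triangles for the 2 libraries with Xist counts and circles for the 4 with Y-linked counts. Black bars are the mean and SD of 3 libraries, drawn only down to 0. Fabp1, Fabp2 and Fabp5 are near 0 on these axes, or far below WT, in both KO circles, while the KO triangle lies closer to WT or above it.

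Among the uptake genes, every KO library lay below every WT library for Slc27a2, while the groups overlapped for Slc27a4 and Cd36. Slc27a2 (chromosome 2, 126552407 to 126588243), which encodes the transport protein FATP2, a very-long-chain acyl-CoA synthetase of liver, had 944, 389 and 523 CPM in KO 1 to 3 and 994, 1282 and 1084 CPM in WT 1 to 3. The groups did not overlap, but KO 1 lay just under WT 1 and only KO 2 and KO 3 lay far below WT. The log2 fold change was -0.86 ± 0.342 (SE, n = 3 against 3) and did not pass (adjusted p = 0.172, edgeR). In the Y-linked libraries it was -1.38 ± 0.225, a 2.59-fold lower mean, with an adjusted p-value of 0.00908, and in the pair with Xist counts KO was 1.05-fold lower.

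Slc27a4 (chromosome 2, 29802634 to 29817522), which encodes FATP4, was the steadiest of the 10 genes. It had 36.7, 37.9 and 38.5 CPM in KO and 37.5, 38.7 and 39.9 CPM in WT. These ranges overlap and span only a few CPM in all. The 95% interval of its log2 fold change ran from -0.28 to 0.20 over the 6 libraries (adjusted p = 0.838 in edgeR), and its sign turned from -0.04 to 0.01 where libraries were scaled by their total alone. It was -0.05 in the Y-linked libraries (adjusted p = 0.736) and -0.03 in the Xist pair.

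Cd36 (chromosome 5, 17781690 to 17888801), a scavenger receptor that takes up fatty acids and oxidised lipoproteins and is known to be higher in female than in male rodent liver, had 86.3, 33.9 and 28.7 CPM in KO 1 to 3 and 71.2, 29.9 and 24.1 CPM in WT 1 to 3. The library with Xist counts was the highest of its group in both groups, and the groups overlapped. The log2 fold change was 0.25 ± 0.548 (SE; adjusted p = 0.801 in edgeR), with a 95% interval from -1.05 to 1.55. Within the Y-linked libraries it was 0.21, with a narrower interval from -0.16 to 0.58 (adjusted p = 0.324), and the ratio in the Xist pair was 0.28 on the log2 scale. Its sign was negative without KO 1 (-0.42) and without WT 3 (-0.02). It was positive without KO 2 (0.47), KO 3 (0.53), WT 1 (0.88) or WT 2 (0.06). Each of these runs leaves unequal numbers of the 2 kinds of library in the groups, and the cause of the change in sign was not tested.

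Of the binding proteins, Fabp1 and Fabp5 had the largest differences of the set, and Fabp2 differed in opposite directions in the 2 kinds of library. Fabp1 (chromosome 6, 71199827 to 71205023), the liver form that binds fatty acids and other bulky lipids, had 3095, 3635 and 3634 CPM in WT 1 to 3 and 1589, 52.8 and 105 CPM in KO 1 to 3. All KO libraries lay below WT, and KO 2 and KO 3 had only a small part of the WT level, with KO 1 far above them. The mean was 582 ± 872 CPM in KO and 3455 ± 312 CPM in WT (SD, n = 3 each), and the log2 fold change of -2.57 ± 1.20 (SE) did not pass the threshold over 6 libraries (adjusted p = 0.227 in edgeR). On the same libraries it was -4.09 with limma voom and -4.27 with the Xist state as a term, which did not pass either (adjusted p = 0.128 and 0.0716). In the Y-linked libraries it fell by 5.53 ± 0.428 on the log2 scale, a 46.0-fold lower mean (adjusted p = 0.00112 in edgeR). In the pair with Xist counts KO was 1.95-fold lower. The tissue is bulk liver, so fewer hepatocytes and less RNA per hepatocyte cannot be told apart, here and for the genes below. The 8 hepatocyte markers had a summed level of 34535 to 88684 CPM in KO and 100044 to 142477 CPM in WT. Alb was the largest part of this sum in every library, at 10394.5 to 50549.7 CPM in KO and 57064 to 95626 CPM in WT. Alb, Ttr, Apoa1, Apob and Trf were lower in every KO library and Cps1 and Tat higher. Serpina1a overlapped between the groups (log2 fold change 0.03). Only Tat passed the threshold, and the part of these markers in the Fabp1 difference was not tested.

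The promoters of Fabp1 and Acsl4 are shown because these genes had the largest fall and the only rise past the threshold in the Y-linked libraries. RefSeq promoter windows on build GRCm38.p6, from 250 bases before to 50 after the start of transcription, were found for 9 of the 10 genes, in 10 windows because Acsl1 has 2, and none was used for Fabp5. Capitals in the Fabp1 window (chr6:71199629-71199928, plus strand) mark a match, on the opposite strand with 1 mismatch, to AGGTCA repeated after 1 free base (a DR1 element, the kind bound by PPAR with RXR), and a TATAAA box. Capitals in the Acsl4 window (chrX:142390486-142390785, minus strand) mark TGACGT, the core of the element bound by CREB. Each sequence is printed 5′ to 3′ on the strand of the gene.
Fabp1: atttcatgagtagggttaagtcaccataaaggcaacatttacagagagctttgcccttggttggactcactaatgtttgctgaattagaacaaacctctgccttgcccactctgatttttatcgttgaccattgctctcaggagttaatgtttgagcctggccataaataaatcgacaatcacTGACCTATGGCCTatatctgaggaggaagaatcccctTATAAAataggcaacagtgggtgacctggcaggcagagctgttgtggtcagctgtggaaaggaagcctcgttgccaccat
Acsl4: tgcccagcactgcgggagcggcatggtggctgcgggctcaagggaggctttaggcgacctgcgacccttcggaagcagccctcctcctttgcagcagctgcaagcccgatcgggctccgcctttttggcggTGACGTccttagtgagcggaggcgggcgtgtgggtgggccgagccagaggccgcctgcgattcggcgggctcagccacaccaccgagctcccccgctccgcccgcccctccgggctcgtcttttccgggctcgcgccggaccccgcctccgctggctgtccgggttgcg

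The match in Fabp1 lies from 67 to 55 bases before the start, reads AGGCCATAGGTCA on the opposite strand and differs from the DR1 letters by T4C, counted from the 5′ end of the motif. Distances are from the RefSeq start. The GENCODE start of Fabp1, at 71199827, lies before it, and by that start the TATAAA box is inside the gene. Searched on both strands with up to 1 mismatch, DR1 was in 0.559% of 32544 distinct RefSeq promoter windows of the same length and in 1 of the 9 genes. The TATAAA box lies 30 to 25 bases before the start and was in 13.6% of windows, again in Fabp1 alone among the 9. GTTAAT, also searched, was in 7.13% of windows and in Fabp1 alone among the 9. It lies 107 to 102 bases before the start and is not in capitals. TGACGT lies 119 to 114 bases before the Acsl4 start and was in 7.55% of windows, and in Acsl4 alone among the 9. The single AGGTCA was in 16.2% of windows and in Cd36, Fabp1 and Slc27a2. In Fabp1 it was found at 2 places on the opposite strand, 1 within the DR1 match and 1 from 9 to 4 bases before the start, which is not in capitals. These are matches of letters only, and binding was not measured in this study's table.

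Fabp2 (chromosome 3, 122895072 to 122899506), the form best known from the enterocyte, had 38.3, 47.3 and 40.9 CPM in WT 1 to 3 and 75.4, 9.54 and 10.7 CPM in KO 1 to 3. KO 1 was the highest of all 6 libraries and KO 2 and KO 3 the lowest, so the groups overlapped although the WT libraries were close to each other. The pooled log2 fold change was -0.40 ± 0.768 (SE; adjusted p = 0.769 in edgeR), and its sign was positive, at 0.05 and 0.01, without KO 2 or without KO 3. It was -1.07 with limma voom and -1.16 with the Xist state as a term (adjusted p = 0.391 and 0.278). Fabp2 fell by 2.13 ± 0.130 on the log2 scale in the Y-linked libraries, a 4.35-fold lower mean (adjusted p = 0.000616). In the pair with Xist counts KO was 1.97-fold higher. Of the 7 genes listed for intestinal epithelium, Alpi, Sis and Fabp6 had 0 counts in all 6 libraries, which allows a level of up to 0.0515 to 0.0641 CPM per library and covers counting error only. Cdh17 and Lct stayed at or below 0.0428 CPM and Vil1 at or below 0.670 CPM. Apoa4, an apolipoprotein that liver also makes, had 1591, 383 and 303 CPM in KO 1 to 3 and 95.4, 56.6 and 62.6 CPM in WT 1 to 3, without overlap (log2 fold change 3.41, adjusted p = 0.0507 in edgeR). The part of intestinal genes in the Fabp2 values was not tested.

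Fabp5 (chromosome 3, 10012548 to 10016607), the epidermal form, which is also found in macrophages and endothelium, had 39.5, 23.1 and 20.7 CPM in WT 1 to 3 and 10.5, 1.57 and 1.17 CPM in KO 1 to 3. The groups did not overlap, and within each group the library with Xist counts was the highest. The log2 fold change was -2.65 ± 0.838 (SE), with a 95% interval from -4.64 to -0.66 and did not pass (adjusted p = 0.112, edgeR). DESeq2 called it (adjusted p = 0.0436), as did edgeR with the Xist state as a term (-3.26, adjusted p = 0.0246), and limma voom gave -3.24 without a call (adjusted p = 0.0596). Fabp5 fell by 4.00 ± 0.183 on the log2 scale in the Y-linked libraries, a 16.0-fold lower mean (adjusted p = 0.000344 in edgeR), and in the Xist pair KO was 3.77-fold lower.

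Whether the KO-WT difference was itself different between the 2 kinds of library was tested with an interaction term in edgeR. It passed the adjusted threshold of 0.05 for 3 of the 10 genes, Fabp1, Fabp2 and Fabp5, against 2.9% of all genes tested. The KO-WT difference in the Xist pair was above that in the Y-linked libraries by 4.56 ± 0.655 for Fabp1 (SE on the log2 scale, adjusted p = 0.0306), by 3.10 ± 0.218 for Fabp2 (adjusted p = 0.00541) and by 2.08 ± 0.270 for Fabp5 (adjusted p = 0.0234). For Acsl4 it was lower by the same measure, at -1.33 ± 0.254, which did not pass (adjusted p = 0.0622). For Slc27a4 and Cd36 the term was 0.01 and 0.06, with 95% intervals from -0.40 to 0.41 and from -0.57 to 0.70. The test takes its spread from the Y-linked libraries and assumes that KO 1 and WT 1 vary like them. The calls for Fabp1 and Fabp5 were lost without WT 2 (adjusted p = 0.146 and 0.128) or without WT 3 (0.157 and 0.119), at nearly the same size.

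**Figure D2:**
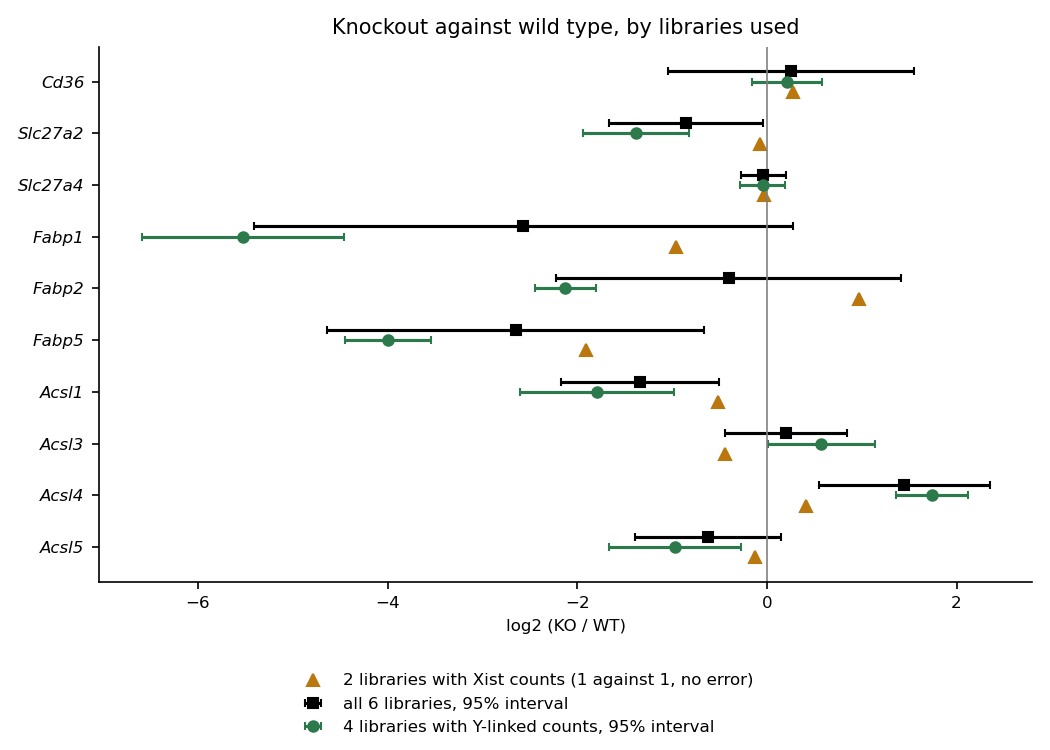
Log2 ratio of KO to WT for the 10 genes, from the edgeR fit of all 6 libraries (black squares), from the 4 libraries with Y-linked counts (green circles) and from the 2 libraries with Xist counts (orange triangles). Bars are 95% intervals, and the 1-against-1 ratios have none. The circles for Fabp1, Fabp5 and Fabp2 lie at -5.53, -4.00 and -2.13, while the triangle of Fabp2 lies above 0.

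Among the acyl-CoA synthetases the most abundant, Acsl1, lay below WT in every KO library and Acsl4 above it. In the Y-linked libraries Acsl1 and Acsl5 fell and Acsl4 rose. Acsl1 (chromosome 8, 46471037 to 46536051), the main synthetase of liver, had 1087, 1496 and 1590 CPM in WT 1 to 3 and 759, 313 and 582 CPM in KO 1 to 3. Every KO library lay below every WT library. Mean levels were 551 ± 225 CPM (KO) and 1391 ± 267 CPM (WT; SD, n = 3 each). The fitted log2 difference was -1.34 ± 0.351 (SE), with an adjusted p of 0.0785 from edgeR and 0.00121 from DESeq2. It fell by 1.79 ± 0.327 on the log2 scale in the Y-linked libraries, a 3.45-fold lower mean (adjusted p = 0.0126), and in the Xist pair KO was 1.43-fold lower.

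Acsl5 (chromosome 19, 55251938 to 55297720), a synthetase of the mitochondrial outer membrane and endoplasmic reticulum, had 479.7, 496 and 424 CPM in WT 1 to 3 and 439.7, 175 and 298 CPM in KO 1 to 3. KO 1 lay within the WT range and KO 2 and KO 3 below it. The log2 fold change of -0.62 ± 0.326 (SE) did not pass the threshold (adjusted p = 0.274 in edgeR), and in the Y-linked libraries it was -0.97 ± 0.279 with an adjusted p-value of 0.0466. In the Xist pair the log2 ratio was -0.13. Acsl5 shares 404 nt of exon with Zdhhc6 on the opposite strand, and its counts were whole numbers in every library. The use of strand is not given, and how reads from that stretch were assigned was not tested.

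Acsl4 (chromosome X, 142317993 to 142390535), which prefers arachidonic acid and other polyunsaturated fatty acids, was the only one of the 10 genes whose KO libraries all lay above WT. It had 67.6, 73.5 and 74.7 CPM in WT 1 to 3 and 90.1, 275 and 224 CPM in KO 1 to 3. The WT libraries were close to each other, KO 1 was just above them and KO 2 and KO 3 were far above. Mean levels were 196 ± 95.3 CPM (KO) and 71.9 ± 3.80 CPM (WT; SD, n = 3 each). The fitted log2 difference was 1.45 ± 0.380 (SE), with an adjusted p of 0.0785 from edgeR and 0.00210 from DESeq2. It rose by 1.74 ± 0.152 on the log2 scale in the Y-linked libraries, a 3.36-fold higher mean (adjusted p = 0.00156), in the Xist pair it was 1.33-fold higher, and with the Xist state as a term it passed at 1.31 (adjusted p = 0.0492). With that term 2 of the 10 genes passed, Fabp5 and Acsl4, against 10.3% of all genes.

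Acsl4, Cd36 and Fabp5 are also expressed in macrophages and endothelium. The 9 macrophage markers had a summed level of 128 to 288 CPM in KO and 178 to 244 CPM in WT, with 0 past the threshold in edgeR and 0 under 0.05 before adjustment. The sum was 288, 174 and 128 CPM in KO 1 to 3 and 218, 178 and 244 CPM in WT 1 to 3. Cd36 and Fabp5 had the same order of KO libraries, and so had the endothelial and stellate cell sums given below. Acsl4 was lowest in KO 1 and highest in KO 2. In WT the macrophage sum was highest in WT 3, where Cd36 and Fabp5 were lowest. The endothelial sum (381, 282 and 291 CPM in WT 1 to 3) and the stellate cell sum (393, 186 and 228 CPM) were highest in WT 1, as were Cd36 and Fabp5. The 10 endothelial markers had sums of 153 to 238 CPM in KO and 282 to 381 CPM in WT, with 0 past the threshold in edgeR and 9 under 0.05 before adjustment (26.3% of all genes), all with lower KO values. Of the stellate cell list 8 of 8 had a negative log2 fold change, 0 passed in edgeR and 0 were under 0.05 before adjustment, with sums of 119 to 238 CPM in KO and 186 to 393 CPM in WT. Among adipocyte markers Lep and Retn had 0 counts in every library, and Adipoq and Plin1 stayed at or below 0.0641 CPM. Cfd reached 0.270 CPM in WT 2, and Fabp4, which macrophages and endothelium also express, was detected in every library at 2.38 to 6.62 CPM (log2 fold change -0.46, adjusted p = 0.444). The part of other cell types in the values of Acsl4, Cd36 and Fabp5 was not tested.

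Acsl3 (chromosome 1, 78657825 to 78707743), a synthetase of the endoplasmic reticulum and of forming lipid droplets, had 47.4, 30.7 and 26.3 CPM in WT 1 to 3 and 34.96, 33.1 and 52.1 CPM in KO 1 to 3. The groups overlapped and the order of KO and WT was opposite in the 2 kinds of library. The log2 fold change was 0.20 ± 0.272 (SE; adjusted p = 0.666 in edgeR) and turned to -0.03 without KO 3. It was 0.57 ± 0.227 in the Y-linked libraries (adjusted p = 0.105) and -0.44 in the Xist pair. Acsl3 shares 244 nt of exon with Utp14b on the same strand, and its counts are not whole numbers, as where reads are divided among genes.

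To compare levels between genes, CPM was divided by the length in kilobases of the longest principal transcript of GENCODE. In WT, Fabp1 was at 6247 ± 564 CPM per kb, far above every other gene of the set (SD, n = 3). Slc27a2 at 384 ± 50.5 and Acsl1 at 357 ± 68.6 CPM per kb came next, with ranges that overlap. Acsl5 followed at 110.0 ± 8.99 CPM per kb, without overlap with its neighbours on either side. Fabp2 at 43.7 ± 4.80 and Fabp5 at 28.1 ± 10.4 CPM per kb overlapped by a narrow margin. The lowest 4 were Acsl4 at 13.6 ± 0.719, Cd36 at 12.3 ± 7.56, Slc27a4 at 9.55 ± 0.291 and Acsl3 at 8.81 ± 2.83 CPM per kb; of these only Acsl4 and Slc27a4, and Acsl4 and Acsl3, did not overlap. In KO 2 this order was changed at the top, since Slc27a2, at 133 CPM per kb, lay above Fabp1, at 95.4 CPM per kb, and Acsl4, at 52.0 CPM per kb, lay above Acsl5, at 41.2 CPM per kb. The order depends on the length used. Per kb of all annotated exons Fabp5 was at 7.78 ± 2.88 CPM in WT, the lowest of the 10 genes, and Acsl1 at 133 ± 25.5 CPM no longer overlapped Slc27a2 at 298 ± 39.2 CPM.

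Within the 4 acyl-CoA synthetases Acsl1 made up a smaller share, and Acsl4 a larger share, in each KO library than in any WT library. Acsl1 held 66.9%, 73.5% and 77.2% of the summed CPM per kb in WT 1 to 3 and 60.0%, 44.1% and 54.3% in KO 1 to 3. Acsl4 held 3.07%, 2.67% and 2.68% in WT and 5.26%, 28.6% and 15.4% in KO. Neither share overlapped between the groups, and no test was run on shares. The summed level of the 4 was 417, 522 and 529 CPM per kb in WT and 324, 182 and 275 CPM per kb in KO, so the sum was smaller in each KO library while its Acsl4 part was larger. With the length of all annotated exons in place of the transcript, Acsl1 held 45.9% to 58.6% in WT and 24.0% to 38.6% in KO, where Acsl5, at 28.9% to 48.2%, had the larger share in each KO library. On that length Acsl4 held 5.13% to 5.54% in WT and 8.89% to 40.9% in KO. These shares assume that the same transcript was used in every library.

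**Figure D3:**
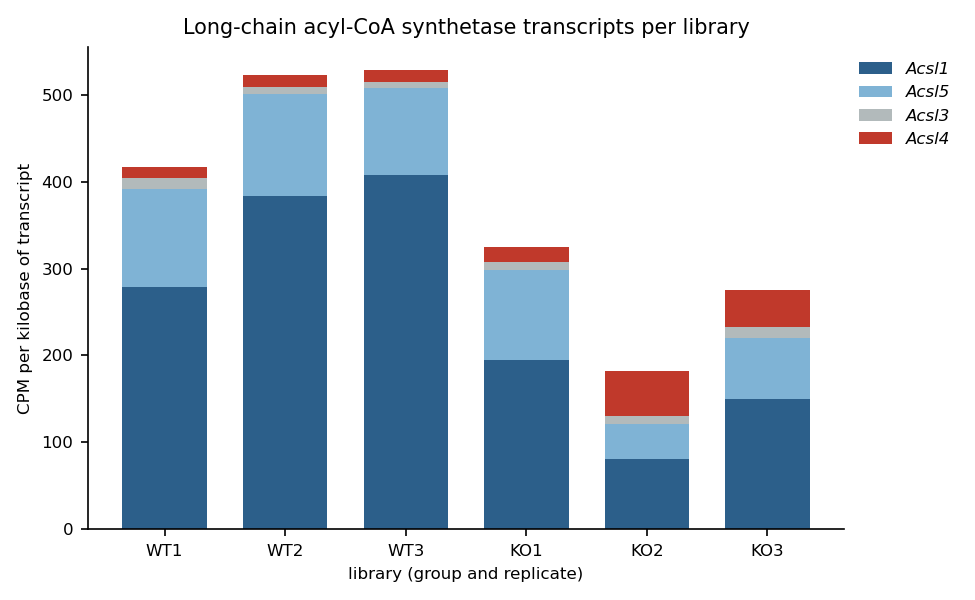
Stacked levels of the 4 long-chain acyl-CoA synthetase genes in each library, in CPM per kilobase of transcript (linear axis from 0), with 1 bar per mouse and no error. The Acsl4 segment is thin in WT and in KO 1 and is 28.6% and 15.4% of the bar in KO 2 and KO 3.

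The genes whose log2 CPM followed these patterns most closely were found by the root mean square distance between centred profiles over the 6 libraries, among 11972 tested genes with a mean of at least 1 CPM. For Fabp5 the nearest gene was Enho, which encodes the secreted peptide adropin, at a distance of 0.25 on the log2 scale, with 32.9, 20.6 and 20.8 CPM in WT 1 to 3 and 8.46, 1.35 and 1.59 CPM in KO 1 to 3. Loxl1 and the carboxylesterase Ces1g followed at 0.36 and 0.40. For Fabp1 they were Camk2b, E2f8 and Nxpe2, at 0.24, 0.28 and 0.35. In KO 2 and KO 3 these and Loxl1 (0.072 and 0.106 CPM) had few reads, so their distance depends in part on the prior count. There Camk2b was at 0 and 0.0637 CPM, E2f8 at 0.054 and 0.106 CPM and Nxpe2 at 0.270 and 0.679 CPM. For Acsl4 they were Parp12, Rhbdf2 and Timm10, at 0.08, 0.08 and 0.09. Enho and these others were close in profile only. In edgeR over 6 libraries 0 of the 9 passed the threshold, against 3.37% of all genes. Before adjustment 7 of the 9 were under 0.05, against 26.3% of all genes. The 9 were chosen by their profile over the same libraries, so these counts follow in part from that choice.

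The wider pathway was described by 5 lists, whose counts are to be read against 3.37% of all genes past the adjusted threshold and 26.3% under 0.05 before adjustment. These values are over all 6 libraries. The median log2 fold change of the 10 was -0.51, against 0.01 over all 14539 genes tested, and 7 of the 10 had a negative value. Other members of the same families (21 genes, 14 tested) had a median of -0.49, with 0 called as higher and 1 as lower. That gene was Acsm5, a medium-chain acyl-CoA synthetase, which fell from 148 ± 19.7 to 72.9 ± 8.91 CPM (SD, n = 3; log2 fold change -1.03 ± 0.163, SE; adjusted p = 0.0316 in edgeR). Its relative Acsm1 had 379 ± 53.7 CPM in WT and 210 ± 28.3 CPM in KO (adjusted p = 0.0566), and Acss2, the acetyl-CoA synthetase of cytosol and nucleus, 205 ± 40.3 and 91.1 ± 41.9 CPM (adjusted p = 0.0922). Slc27a5, the bile acid and fatty acid transport protein FATP5, had 905, 939 and 866 CPM in WT and 794, 483 and 644 CPM in KO, without overlap (adjusted p = 0.212).

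Genes of acyl-CoA binding and membrane transport (15 tested) had a median log2 fold change of -0.20; 0 passed in edgeR, and 5 had a p-value under 0.05 before adjustment (26.3% of all genes). Those with the smallest p-values were Cav1, of the caveolar coat, at 1.37 ± 0.624 CPM in KO and 3.67 ± 0.474 CPM in WT (SD, n = 3; adjusted p = 0.0717), and Acbd4, an acyl-CoA binding protein, at 26.6 ± 5.68 and 39.0 ± 2.27 CPM (adjusted p = 0.111). Cav1 is also an endothelial gene, and the endothelial sums are given above.

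Among 25 genes for the fates of acyl-CoA, 1 rose and 1 fell, with a median of 0.04. Gpat4, which starts glycerolipid synthesis in the endoplasmic reticulum, rose from 149 ± 27.7 to 462 ± 116 CPM (SD, n = 3; log2 fold change 1.63 ± 0.246, SE; adjusted p = 0.0277 in edgeR). Acot1, a thioesterase that splits acyl-CoA back to the free fatty acid and so opposes the synthetases, fell from 37.99 ± 1.90 to 4.95 ± 3.63 CPM (adjusted p = 0.0383). Cpt1a, the entry enzyme of mitochondrial oxidation, had 686, 323 and 386 CPM in KO and 345, 352 and 295 CPM in WT, with overlap (adjusted p = 0.335).

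Of 17 factors known to regulate such genes, 1 rose, the coactivator Ppargc1a (adjusted p = 0.0446 in edgeR), and 0 fell. Ppara, the gene of PPAR-alpha, had 95.4, 98.5 and 78.3 CPM in WT 1 to 3 and 65.1, 19.3 and 30.5 CPM in KO 1 to 3. These groups did not overlap, KO 2 and KO 3 were again the lowest, and the log2 fold change of -1.24 ± 0.418 (SE) did not pass (adjusted p = 0.125). Pparg had 10.3, 11.0 and 10.3 CPM in WT and 10.1, 7.17 and 4.05 CPM in KO (adjusted p = 0.291). The xenobiotic receptors Nr1i2 and Nr1i3 had log2 fold changes of 0.76 and -1.25 (adjusted p = 0.0541 and 0.0919). Of 14 tested PPAR targets outside the families, 0 passed in edgeR, 7 had a p-value under 0.05 before adjustment (26.3% of all genes), and the median was -0.52. Those with the smallest p-values differed in sign, with -0.90 ± 0.182 (SE) for Ehhadh, an enzyme of peroxisomal oxidation (adjusted p = 0.0505), and 1.13 ± 0.257 for Plin5, a lipid droplet protein (adjusted p = 0.0618).

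**Figure D4:**
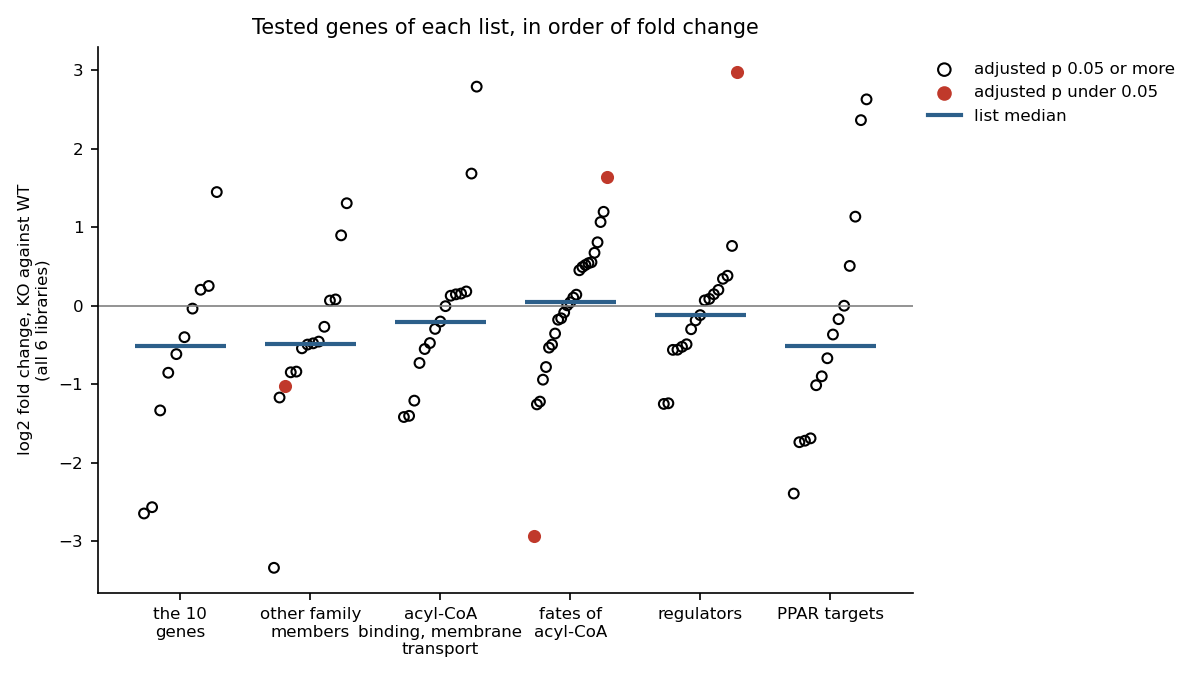
Log2 fold change of KO against WT over all 6 libraries for each tested gene of the 10 and of the 5 related lists, with filled points for genes past an adjusted p-value of 0.05 and a bar at each list's median. The 10 genes, the other family members and the PPAR targets have medians of -0.51, -0.49 and -0.52, and the filled points are Acsm5, Acot1, Gpat4 and Ppargc1a.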

How the data were processed

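Per the labels' protocols, mRNA from about 20 mg of each of 6 livers (200 ng of RNA, 1 library per mouse) was read in 76 nt pairs. The deposited table holds expected counts per gene, which the authors estimated with RSEM per the file's name and notes. The submitters' processing notes name bcl2fastq 2.17, cutadapt 1.18, STAR 2.7.0f, RSEM 1.3.1 and build mm9. All 55450 versioned gene identifiers are those of GENCODE M21 on GRCm38, so positions come from that release. The strand setting is not given in the sources used here. Groups and replicate numbers come from the titles, columns from the descriptions, and 0 columns were left without a sample.

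Expected counts were rounded, filtered with filterByExpr of edgeR 4.0.16, scaled by TMM and tested with glmQLFTest on the group alone in R 4.3.3, with Benjamini-Hochberg adjustment over all 14539 genes and a threshold of 0.05. The SE is the log2 fold change divided by the square root of F. Log2 ratios of the Xist pair use an offset of 0.1 CPM, and its fold values use no offset. DESeq2 1.42.0 and limma voom 3.58.1 were alternatives. The fits were also run on simulated data, with results not given here. Simulated interactions with changed genes had a smaller spread than these data, so they do not show how well that term finds changes here.

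The 10 genes and all lists were chosen with earlier results of these data known. Named from the lists are each gene past the threshold, the next 2 by p-value where fewer than 2 passed, and Ppara, Pparg, Cpt1a and Stk11. Slc27a5 and the marker genes were added after their values were seen. The nearest profiles are given for the 3 genes with the largest absolute fold change, on log2 CPM with a prior count of 2. Same-numbered libraries come from different mice and were not paired.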

Additional observations from a re-analysis of the deposited data

Results flagged for a closer look

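The difference between KO and WT was not the same in the 2 kinds of library for 3 genes, by the interaction test in edgeR. For Fabp1 the KO-WT difference was 4.56 higher on the log2 scale in the Xist pair than in the Y-linked libraries, for Fabp2 3.10 higher and for Fabp5 2.08 higher (adjusted p = 0.0306, 0.00541 and 0.0234). KO was below WT in both kinds of library for Fabp1 and Fabp5, and above WT in the Xist pair alone for Fabp2. The calls for Fabp1 and Fabp5 were lost without WT 2 (adjusted p = 0.146 and 0.128) or without WT 3 (0.157 and 0.119), and that for Fabp2 was kept in both (0.0299 and 0.0264). KO 1 was also the KO library with the highest Stk11 level. With 1 library with Xist counts in each group, the kind of library, the single mouse and the Stk11 level of KO 1 cannot be told apart.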

How the results depend on the processing

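Of the 10 genes, 0 passed the threshold over the 6 libraries, and 3 passed with DESeq2, 2 with the Xist state as a term and 7 in the 4 Y-linked libraries. Leaving out 1 library in turn gave 0 to 7, with 7 only without KO 1. The number of genes called over the whole table was 490, and it was 2290 with DESeq2, 771 with no filter, 1504 with the Xist state as a term, 4847 in the Y-linked libraries and 6 to 4473 without 1 library (6 without WT 2). The replicate block, tried because the titles number the mice, called 105 genes and 0 of the 10; deviations of same-numbered libraries correlated at 0.18, 0.04 and 0.07, and KO 2 and KO 3 each correlated best with a WT library of another number. The interaction called 421 genes, 1607 with no filter and 67 to 4679 without 1 of the Y-linked libraries, and it cannot be fitted without KO 1 or WT 1. The log2 fold changes of Slc27a2, Fabp1, Fabp5, Acsl1, Acsl4 and Acsl5 kept their sign in all 15 alternatives. Slc27a4 changed sign with library size alone (0.0076). With 1 library left out, Cd36 ran from -0.42 without KO 1 to 0.88 without WT 1 (-0.02 without WT 3), Fabp2 from -2.06 without KO 1 to 0.046 without KO 2 (0.0081 without KO 3) and Acsl3 from -0.031 without KO 3 to 0.49 without WT 1, and the cause was not tested. In the Y-linked libraries Fabp2 was at -2.13 and Acsl3 at 0.57. Fabp1, at -2.57 over the 6 libraries, was at -4.31 with the replicate block, Fabp2 at -1.16 and Fabp5 at -3.28. Interaction terms of single genes under other settings were added after seeing the data. Depth did not limit these values, as the lowest count was 55.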

Other observations

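Values not given above, chosen after they were seen, come from the wider lists and from 1 further binding protein gene. Fabp12, which is on no list, had 0.463, 1.40 and 1.08 CPM in KO 1 to 3 and 0.118, 0.0771 and 0.0641 CPM in WT 1 to 3, low levels in all, and passed the threshold as higher in KO (adjusted p = 0.0322, edgeR). Mfsd2a, a carrier of lysophospholipids with long polyunsaturated chains, had 44.4, 126 and 126 CPM in KO 1 to 3 and 35.4, 3.80 and 3.51 CPM in WT 1 to 3, a fitted log2 difference of 2.79 ± 0.983 (SE; adjusted p = 0.138, edgeR). In WT 1, the WT library with Xist counts, Mfsd2a was about as high as in KO 1. Acss3, an acyl-CoA synthetase for short chains, had 125, 89.5 and 111 CPM in KO and 73.8, 34.5 and 23.7 CPM in WT, without overlap (adjusted p = 0.110). Dbi, the acyl-CoA binding protein, had 472, 85.7 and 201 CPM in KO 1 to 3 and 605, 587 and 564 CPM in WT 1 to 3, without overlap (adjusted p = 0.219).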
